A study of Homo sapiens with 12 samples.

Results

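The regions described here are the peaks of the Polycomb-like protein PHF19 that lay away from gene starts and carried no peak of its relative MTF2. They were taken from the PHF19 peak list of K562 cells infected with an empty shRNA vector (shCT). A peak was taken when it shared 0 bp with every MTF2 peak of the sh#2 list and of the shCT list, and when the whole peak lay more than 2.5 kb from every annotated transcript start (GENCODE on GRCh37, the assembly of hg19). Of the 5621 peaks of the PHF19 list, 1346 met the rule, or 23.9% (95% exact binomial interval 22.8 to 25.1%). They made up 44.9% of the 2998 distal PHF19 peaks (43.1 to 46.7%). They are called MTF2-free distal peaks below. The study counted as positive only PHF19 peaks above a minimum of tags. The list gives no tags, so this filter could not be applied. The study reported far fewer PHF19 peaks than the list holds, so many of the peaks described here may fall outside the set it kept. The main comparison is with the 1077 distal PHF19 peaks that overlapped MTF2 in both lists, called MTF2-shared distal peaks. A further 456 distal peaks overlapped MTF2 in the sh#2 list only and 119 in the shCT list only. Among all PHF19 peaks 39.0% had no MTF2 overlap, and within 2.5 kb of a transcript start the share was 32.4% (849 of 2623 peaks). The peaks were thus selected on measured values, the PHF19 and MTF2 peak calls, and on position, so these shares are fixed by the rule and were not tested.

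K562 is a human cell line from the blast crisis of chronic myeloid leukemia that carries the BCR-ABL fusion and can be driven toward erythroid cells. Cells were infected with the empty pLKO.1 vector (shCT) or with an shRNA against the long isoform of PHF19 (sh#2), and selected with puromycin. Chromatin immunoprecipitation sequencing (ChIP-seq), with fruit fly chromatin added as a spike-in, gave 1 MTF2 library from sh#2 cells, 1 MTF2 library from shCT cells and 1 PHF19 library from shCT cells. RNA-seq was made in 6 libraries, 2 each for the hairpins sh#1 and sh#2 and for shCT, and is read here only as the authors' mean over all of them. With 1 library per ChIP condition, no difference between conditions has a replicate check and no test was run. All intervals cover counting error over peaks only. In the RNA the 13 erythroid and K562 marker genes had mean normalized counts of 4053 to 171753. Of 7 genes of other blood cells 6 lay under 50, the exception being the T cell gene CD3D at 962, and 3 genes of other tissues did not exceed 6.72.

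Polycomb repressive complex 2 (PRC2) is the enzyme complex that methylates lysine 27 of histone H3, a mark of repressed genes. PHF19, MTF2 and PHF1 are alternative accessory subunits that tie PRC2 to chromatin. They bind methylated histone H3 tails through a Tudor domain and unmethylated CpG-rich DNA through a winged-helix domain, so PRC2 is best known at CpG islands of silent developmental genes.

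The sequences below show the range of DNA under these peaks. Each is the central 200 bp of a peak on the plus strand of GRCh37, read 5′ to 3′, with every CpG in capitals. The first is that of the peak with the highest PHF19 score, chr1:24865152-24868137, with its midpoint in an exon of RCAN3, which encodes a calcineurin regulator (window chr1:24866545-24866744).
RCAN3 peak: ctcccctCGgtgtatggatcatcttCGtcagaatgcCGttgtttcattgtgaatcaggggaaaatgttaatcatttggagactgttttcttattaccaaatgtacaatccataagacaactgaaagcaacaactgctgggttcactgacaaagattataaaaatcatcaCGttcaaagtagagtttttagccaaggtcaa
This window had 38.0% G or C and held 4 CpG. The next pair comes from the peaks of highest GC content, 70.8% at chr5:76372885-76373892 and 69.6% at chr2:73402542-73403555, the second upstream of RAB11FIP5, an endosomal transport protein. Their windows (chr5:76373289-76373488 and chr2:73402949-73403148) held 29 and 27 CpG.
GC-rich peak on chromosome 5: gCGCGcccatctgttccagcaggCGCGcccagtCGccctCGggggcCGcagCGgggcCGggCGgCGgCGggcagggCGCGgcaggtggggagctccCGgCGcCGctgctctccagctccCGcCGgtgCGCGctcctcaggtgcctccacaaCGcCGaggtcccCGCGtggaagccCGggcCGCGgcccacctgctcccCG
RAB11FIP5 peak: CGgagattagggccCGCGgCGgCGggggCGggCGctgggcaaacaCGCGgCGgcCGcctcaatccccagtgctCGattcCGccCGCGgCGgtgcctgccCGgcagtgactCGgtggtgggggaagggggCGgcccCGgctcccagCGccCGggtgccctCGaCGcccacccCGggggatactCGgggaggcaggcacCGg
Among the peaks of lowest GC content were those in introns of ELOVL6, a fatty acid elongase, with 24.9% in chr4:111004821-111005869, and of ATF3, a stress-induced transcription factor, with 29.9% in chr1:212747749-212749379. Their windows (chr4:111005246-111005445 and chr1:212748465-212748664) held 0 CpG, and the first is a run of short AT-rich repeats.
ELOVL6 peak: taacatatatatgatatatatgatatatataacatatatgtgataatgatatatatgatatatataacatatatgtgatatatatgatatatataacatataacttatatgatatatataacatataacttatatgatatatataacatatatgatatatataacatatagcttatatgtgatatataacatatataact
ATF3 peak: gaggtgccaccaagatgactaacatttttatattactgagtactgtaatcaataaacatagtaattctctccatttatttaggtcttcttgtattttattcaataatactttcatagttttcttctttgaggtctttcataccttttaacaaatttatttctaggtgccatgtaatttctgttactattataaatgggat
For comparison, the MTF2-shared distal peak of highest score, 1009.6 at chr2:91669701-91671487, held 27 CpG in its window chr2:91670495-91670694. This window is also visibly repetitive. The peak is not typical of its class, with 68.8% G or C and 129 CpG per kb against medians of 49.6% and 19.8 per kb in the MTF2-shared distal peaks.
Highest MTF2-shared peak: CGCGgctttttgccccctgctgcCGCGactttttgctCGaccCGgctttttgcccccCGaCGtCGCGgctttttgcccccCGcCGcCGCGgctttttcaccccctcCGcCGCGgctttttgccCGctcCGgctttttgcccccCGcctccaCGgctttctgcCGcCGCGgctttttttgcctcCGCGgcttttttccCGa

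The MTF2-free distal peaks were weaker and narrower than the MTF2-shared distal peaks. The score is the number the deposited list gives each peak, with a lowest value of 50 in every list. It had the form of a peak caller's scaled log p, which the list does not name. The MTF2-free distal peaks scored from 50 to 304.88, with a median of 63.3 (62.1 to 64.3), against a median of 83.1 (79.1 to 87.4) and a highest score of 1009.6 in the MTF2-shared distal peaks. None of the 100 strongest PHF19 peaks was MTF2-free and distal. Such peaks made up 13 of the strongest 500, 53 of the strongest 1000 and 223 of the strongest 2000. Their width ran from 505 to 7727 bp, with a median of 1203.5 bp (1171 to 1234), against 2061 bp (1995 to 2132) in the MTF2-shared peaks. The 456 distal peaks with MTF2 in the sh#2 list only had a median score of 65.6 (63.1 to 68.7) and a median width of 1509 bp (1416 to 1593). Over all PHF19 peaks the median score was 72.3. Score and width come from the list on which the peaks were selected, so they are given as a description.

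**Figure D1:**
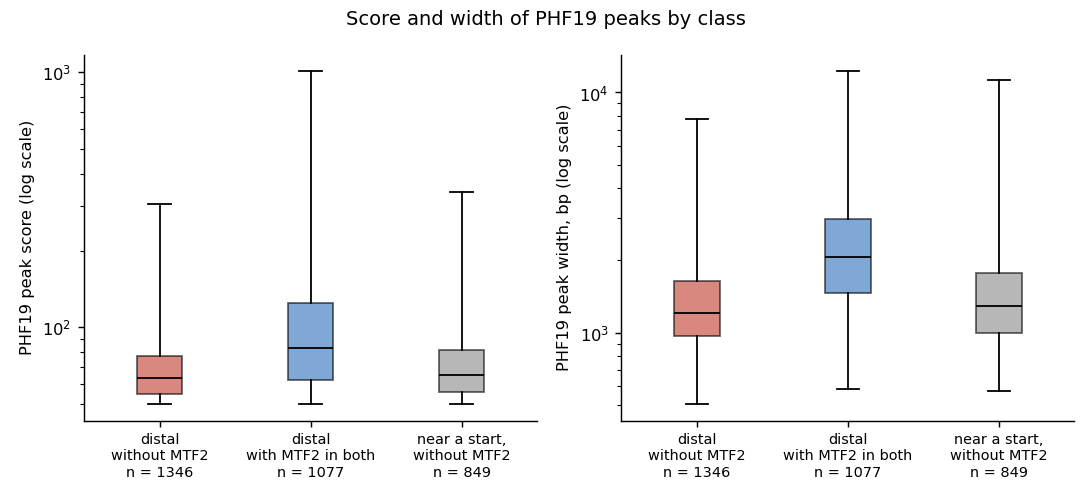
Score (left) and width in bp (right), both on log axes, of the 1346 distal PHF19 peaks without MTF2, the 1077 distal peaks with MTF2 in both lists and the 849 peaks near a transcript start without MTF2. Boxes span the quartiles, lines mark the median and whiskers reach the lowest and highest peak. The median score was 63.3, 83.1 and 64.8, and both MTF2-free classes were narrower.

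The strongest MTF2-free distal peaks lay near genes of varied function and level. Expression is given as the mean normalized count in the authors' RNA table, and the nearest gene is the protein-coding gene whose start is closest. The RCAN3 peak (304.88, rank 158 of all PHF19 peaks) lay 14.4 kb upstream of NCMAP, a myelin protein with a mean normalized count of 25.9, and 3.95 kb from the nearest MTF2 peak of sh#2 cells and 7.80 kb from that of shCT cells. The next peak (296.01) was 5247 bp wide and lay 16.0 kb upstream of FXYD6, a regulator of the sodium pump, which had a mean normalized count of 3.41. At UBE2J1, an endoplasmic reticulum ubiquitin-conjugating enzyme with a count of 2855, chr6:90066105-90069622 scored 285.49 and lay 3.66 kb upstream. Its nearest MTF2 peak was 19.8 kb away in sh#2 cells and 49.4 kb away in shCT cells. UBE2J1 had no peak of PHF19 or MTF2 within 2.5 kb of its start, whereas FXYD6 and NCMAP had both.

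The other strong peaks also lay near genes of very different level. At chr2:38767259-38769440 (269.17) the nearest coding gene start was that of HNRNPLL, a splicing regulator with a mean normalized count of 3280, at 61.3 kb. Its nearest MTF2 peak was 379.8 kb away in sh#2 cells and 3.41 kb away in shCT cells. The intronic peak chr18:3711661-3719387 (234.71) in DLGAP1, a postsynaptic scaffold gene with a count of 16.8, was also the widest of all at 7727 bp. Upstream of ULBP3, a ligand of the natural killer receptor NKG2D with a count of 34.2, chr6:150396812-150399223 scored 230.7. Near ZNF318, a zinc finger gene with a count of 4440, chr6:43356543-43361063 scored 219.03 and lay over 60 kb from MTF2 in either list (60.4 kb in sh#2 cells and 60.6 kb in shCT cells). Upstream of NCR2, an activating receptor of natural killer cells listed at 0, chr6:41292833-41295348 scored 209. The tenth, chr17:41073951-41075429 (208.1), lay beyond G6PC1, the glucose-6-phosphatase gene, which had a count of 8.47.

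The other peaks among the 5 widest were chr1:234911800-234919323, 7524 bp wide and 165.9 kb upstream of IRF2BP2, a transcriptional corepressor with a mean normalized count of 2720, and chr7:149326029-149331846 (5818 bp) near KRBA1. They also included chr7:150607655-150613390 (5736 bp) near KCNH2, a potassium channel gene with a count of 11446, and chr13:91962448-91967774 (5327 bp). The peak on chromosome 13 had its nearest annotated transcript start in MIR17HG, the host of the miR-17-92 cluster, at 32166 bp. Width and score did not go together in all of them, since the KRBA1 peak scored 71.87 and the IRF2BP2 peak 167.19.

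MTF2 was often in the neighborhood without touching the peak. The median distance to the nearest MTF2 peak was 20891.5 bp (18183 to 24771) in the sh#2 list and 34293.5 bp (28028 to 38793) in the shCT list. The nearest MTF2 peak of sh#2 cells was closer than that of shCT cells for 1012 of the 1346 peaks (75.2%), and farther for 334. By more than 10 kb, it was closer for 369 and farther for 132. The sh#2 list was also larger, with 18287 peaks covering 63.2 Mb, against 12502 peaks covering 29.0 Mb in the shCT list. Its part in these distances was not tested, and the depth of the libraries is not known.

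**Figure D2:**
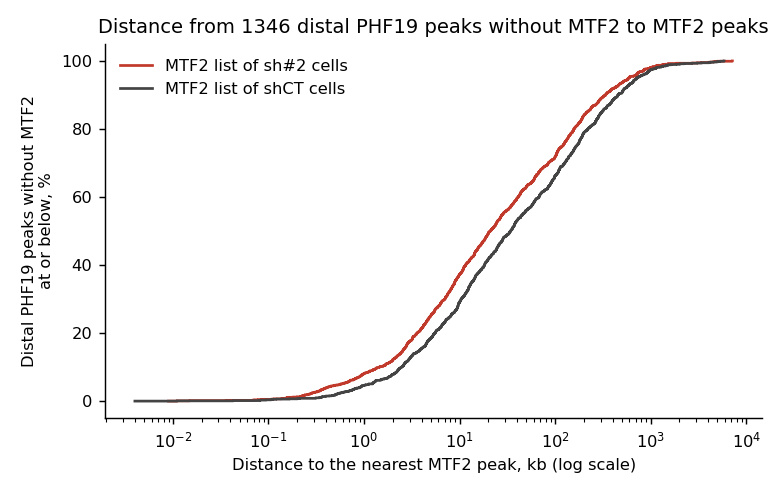
Cumulative share of the 1346 MTF2-free distal PHF19 peaks (vertical axis, percent) by distance to the nearest MTF2 peak of sh#2 cells and of shCT cells (horizontal axis, kb, log scale). The curve of sh#2 cells lies to the left, with medians of 20891.5 and 34293.5 bp in sh#2 and shCT cells.

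Within 1 kb of an MTF2 peak of either list lay 138 of the MTF2-free distal peaks (10.3%), within 10 kb 553 (41.1%) and within 100 kb 1013 (75.3%). The 5 closest to MTF2 were 4 to 15 bp away from it. They lay in introns of SH3PXD2A (4 bp), KIAA1549 (11 bp) and DGKI (15 bp), and upstream of SLC22A11 (9 bp) and of NPC1 (11 bp), the cholesterol transporter of lysosomes. Just outside the rule, distal peaks in SLC35F2, AKAP12 and MAF and near PPDPF and FOXP1 overlapped MTF2 of sh#2 cells by 25 to 56 bp. At the other threshold, the members closest to a transcript start were 2504 to 2537 bp away. These starts belonged to SNORA47, CDC20B, ACOXL, COLEC12 and ENSG00000251675, the last for a peak in an intron of SERINC5. The MTF2-free peaks left out most narrowly were 2462 to 2495 bp away from starts of FH, LPO, NANOS2, ENSG00000231547 and ENSG00000236206.

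The DNA under the MTF2-free distal peaks was poorer in CpG than that under the MTF2-shared distal peaks. Their median GC content was 41.1% (40.8 to 41.5%), ranging from 24.9 to 70.8%, against 49.6% (49.0 to 50.3%) in the MTF2-shared distal peaks. The 1-kb tiles taken every 10 kb along the genome had a median of 39.9%, with quartiles of 35.8 and 45.1%. CpG density was not measured in the tiles. The median CpG density was 8.93 per kb in the MTF2-free and 19.8 per kb in the MTF2-shared distal peaks, and the ratio of observed to expected CpG was 0.214 and 0.330 in these classes. Distal peaks with MTF2 in the sh#2 list only lay between them, at 45.2% G or C and 13.5 CpG per kb.

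A CpG-rich window, meaning any 200 bp with at least 50% G or C and an observed to expected CpG ratio of at least 0.6, was found in 177 of the 1346 MTF2-free distal peaks, or 13.2% (11.4 to 15.1%). The share was 62.6% (59.6 to 65.5%) in the MTF2-shared distal peaks and 29.6% (25.4 to 34.0%) in those with MTF2 in the sh#2 list only. MTF2-free peaks near a transcript start had it in 54.2% (50.8 to 57.6%). The classes also differed in width. Among peaks 1000 to 1500 bp wide it was 11.6% (63 of 541) in the MTF2-free and 49.6% (112 of 226) in the MTF2-shared distal peaks, and the median GC content was 41.0 and 49.6%. This width band was chosen after the data were seen.

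**Figure D3:**
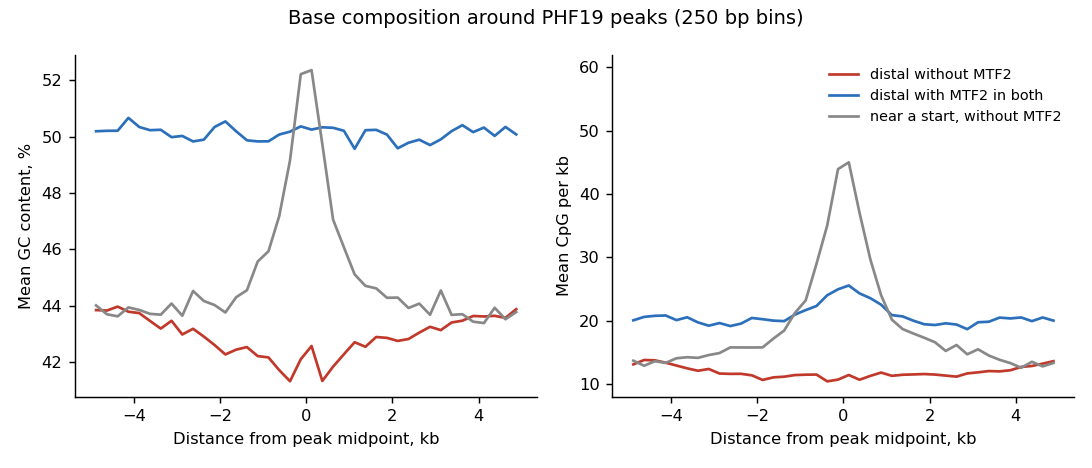
Mean GC content in percent (left) and mean CpG per kb (right) in 250 bp bins within 5 kb of the peak midpoint, for distal PHF19 peaks without MTF2 (n = 1346), distal peaks with MTF2 in both lists (n = 1077) and peaks near a transcript start without MTF2 (n = 849). The MTF2-free distal peaks show no rise of CpG at the midpoint (11.1 per kb, and 13.4 at 5 kb), and the other classes do. The last class was selected by nearness to a transcript start, and both distal classes by distance from one.

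The profile around the peaks showed where the CpG lay. In the MTF2-free distal peaks the mean CpG density was 11.1 per kb in the bins at the midpoint and 13.4 per kb in the bins at 5 kb, with mean GC contents of 42.3 and 43.9%. The MTF2-shared distal peaks had 25.3 CpG per kb at the midpoint and 20.04 at 5 kb, in surroundings of 50.3 and 50.1% G or C. The MTF2-free peaks near a transcript start had 44.5 and 13.5 CpG per kb at these positions. They were selected by nearness to a transcript start, while both distal classes were kept more than 2.5 kb from one. The part of this selection in the profiles was not tested. The stronger of the MTF2-free distal peaks were no richer in G or C. The 426 at or above the median score of all PHF19 peaks had a median GC content of 40.9% (40.4 to 41.3%), although 18.1% of them held a CpG-rich window.

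Short motifs of known factors occurred in the MTF2-free distal peaks about as often as in the genome. Each was searched on both strands in the central 1000 bp and compared with 283546 genome tiles of that length. AGATAA, the core bound by GATA factors, was present in 53.3% of the MTF2-free (50.6 to 56.0%) and 36.6% of the MTF2-shared distal peaks, and in 53.5% of the tiles. GGGCGG, bound by Sp factors, was present in 12.1%, 34.8% and 11.9% in that order. CCACCC, bound by KLF factors, was found in 42.6%, 66.0% and 41.3%, and GGNGGCAG, part of the CTCF motif, in 22.3%, 39.3% and 23.9%. The classes also differ in GC content, whose part in these shares was not tested, and a match of letters is not a bound site.

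The other motifs differed by fewer percentage points between the classes. The E-box CACGTG was present in 10.2% of the MTF2-free (8.61 to 11.9%) and 17.2% of the MTF2-shared distal peaks and in 8.71% of the tiles. GCCATNTT, a YY1 motif, was present in 18.7%, 12.9% and 19.8%, and TGACTCA, the AP-1 site, in 16.4% (14.5 to 18.5%), 14.0% and 14.6%. GAGAGAGA was present in 12.0%, 13.6% and 11.3%. TTCAGCACC, part of the REST motif, was present in 0.891%, 1.21% and 0.997%, with 12 of the 1346 MTF2-free distal peaks holding it.

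By position in genes, the intron, exon and intergenic shares of both distal classes had overlapping intervals. Of the MTF2-free distal peaks 597 had their midpoint in an intron, 44.4% (41.7 to 47.1%), against 45.0% (42.0 to 48.1%) of the MTF2-shared distal peaks. A further 50.1% and 48.7% lay between genes, and 5.57% and 6.31% in exons, in the MTF2-free and MTF2-shared distal peaks. A protein-coding gene held 38.9% (36.2 to 41.5%) of the MTF2-free and 43.5% (40.6 to 46.6%) of the MTF2-shared distal peaks, and only a long noncoding RNA gene held 10.5% (8.96 to 12.3%) and 7.71% (6.18 to 9.46%). The median distance to the nearest start of a protein-coding gene was 23374.5 bp (21506 to 25124) and 28378 bp (25629 to 31658) in these classes. Midpoints inside a gene fell in 521 different genes, of which 420 held a single peak.

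The nearest genes of the MTF2-free distal peaks were more highly expressed. Their median mean normalized count was 425 (322 to 536) over the 1313 peaks whose nearest gene had a value, against 33.9 (17.5 to 44.2) over 1046 MTF2-shared distal peaks. Counting each gene once, the medians were 346 (982 genes) and 33.3 (650 genes). Counts of at least 1000 were found for 39.4% (36.7 to 42.1%) and 24.5% (21.9 to 27.2%) of the peaks, and of at least 10 for 72.9% and 59.0%. At widths of 1000 to 1500 bp the medians were 412 and 34.2. MTF2-free peaks near a transcript start had a median of 749. Distal peaks with MTF2 in the sh#2 list only had a median of 43.1 (16.1 to 79.9, 445 peaks). The value depended on which gene a peak was assigned to. For peaks inside a protein-coding gene, that gene had a median count of 24.4 (18.3 to 28.6, 502 peaks) in the MTF2-free and 5.76 (4.01 to 7.39, 450 peaks) in the MTF2-shared distal class. When the rule used the MTF2 peaks of shCT cells alone, the median for the nearest gene was 281.

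**Figure D4:**
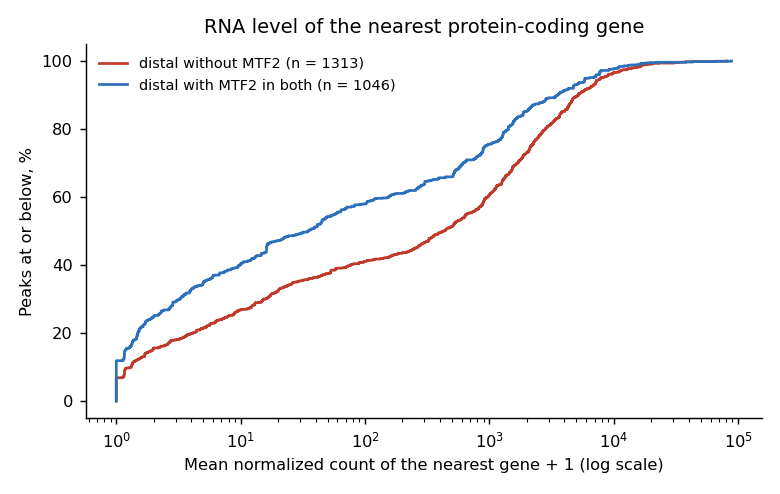
Cumulative share of peaks (vertical axis, percent) by mean normalized count of the nearest protein-coding gene plus 1 (horizontal axis, log scale), for distal PHF19 peaks without MTF2 (n = 1313) and with MTF2 in both lists (n = 1046). The curve without MTF2 lies to the right, with medians of 425 and 33.9.

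The level of the nearest gene also varied with the distance to MTF2 among the MTF2-free distal peaks themselves. Its median was 18.2 (11.6 to 52.2) over the 134 peaks with a value and with MTF2 under 1 kb away in either list, and 72.9 (28.6 to 326) over 410 peaks at 1 to 10 kb. It was 594 (425 to 885) over 446 peaks at 10 to 100 kb and 1091 (886 to 1274) over 323 peaks farther away. Without the peaks that had MTF2 within 10 kb, the median was 884. The median GC content was 42.5%, 41.3%, 41.3% and 40.4% in these groups, from the closest to the farthest. The start of the nearest gene carried an MTF2 peak of sh#2 cells within 2.5 kb for 55.8% of the peaks closest to MTF2 and 3.00% of those farthest. The second of these shares is limited by how the groups were formed.

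Over all MTF2-free distal peaks, 25.5% (23.2 to 27.9%) had a nearest gene whose start carried a PHF19 peak within 2.5 kb, against 35.7% (32.9 to 38.7%) of the MTF2-shared distal peaks. An MTF2 peak at that start was found for 26.8% and 53.6% in the sh#2 list and for 22.2% and 45.7% in the shCT list. Another PHF19 peak lay within 10 kb of 41.5% (38.9 to 44.2%) of the MTF2-free and 60.3% (57.3 to 63.2%) of the MTF2-shared distal peaks. Intronic MTF2-free peaks had a nearest gene of lower level than those between genes, with medians of 220 (94.98 to 320) and 690 (519 to 899).

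Some genes held several MTF2-free distal peaks. SKAP1, a T cell adaptor gene of 297 kb on chromosome 17 with a mean normalized count of 0.694, held 10, scoring from 54.18 to 190.67. The nearest of them lay 31668 bp from MTF2 of sh#2 cells and 31448 bp from MTF2 of shCT cells. SKAP1 also held 6 other PHF19 peaks, 6 MTF2 peaks of sh#2 cells and 4 of shCT cells. The long noncoding RNA gene LINC01476 on the same chromosome held 5 within 105 kb, with no other PHF19 peak. ATF3, with a mean normalized count of 385, held 4 in 55.4 kb, or 7.21 per 100 kb, beside 4 other PHF19 peaks. The remaining genes with 4 were DLGAP1, TSPAN12, a tetraspanin of Wnt and Norrin signaling, HSF5, a heat shock factor of the testis, and ZSWIM5. They also included ZBTB16, which encodes the transcription factor PLZF, NRCAM, a neuronal adhesion molecule, and SSH2, a cofilin phosphatase. SSH2, with a count of 503, had no other peak of PHF19 and none of MTF2 in 304 kb. ZBTB16, with a count of 1.70, had 10 other PHF19 peaks.

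As the nearest gene, SKAP1 and ARID1B, a subunit of the SWI/SNF chromatin remodeler, each had 7 MTF2-free distal peaks. Those near ARID1B lay 22.8 to 88.8 kb from its start and scored 54.05 to 134.61, and the gene had a mean normalized count of 2492 and a PHF19 peak but no MTF2 peak at its start. TSPAN12, the signaling adaptor TAB2 (count 3672), the axonemal dynein gene DNAH17 and the kinesin KIFC3 (count 1866) each had 5. TAB2, DNAH17 and KIFC3 had neither PHF19 nor MTF2 within 2.5 kb of their starts.

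Most MTF2-free distal peaks had no other MTF2-free distal peak close by. Joined only with each other at gaps of up to 10 kb, 1025 remained single. The other 321 fell into 142 clusters, of which 109 had 2 peaks, 29 had 3 and 4 had 4. PHF19 peaks of other classes were left out of this joining. With them, 41.5% of the MTF2-free distal peaks had another PHF19 peak within 10 kb. The clusters of 4 lay near GBGT1 and OBP2B on chromosome 9 (20812 bp), near UBTF and SLC4A1 on chromosome 17 (13405 bp), near SYPL2 on chromosome 1 (11679 bp) and near PRELID3B on chromosome 20 (13180 bp). UBTF encodes a factor of ribosomal RNA transcription, and SLC4A1 the band 3 anion exchanger of red cells.

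CDKN1A, which encodes the CDK inhibitor p21, had a cluster of 3 upstream of its start on chromosome 6. These peaks scored 290.75, 84.49 and 65.74 and lay 14.9, 27.99 and 20.4 kb from the gene start, spanning 14390 bp in all. The nearest MTF2 peaks were 14024 bp away in sh#2 cells and 14131 bp away in shCT cells. The start of CDKN1A itself carried peaks of PHF19 and of MTF2 in both conditions, and the gene had a mean normalized count of 281. The list of cell cycle inhibitors had 5 MTF2-free (0.37%) and 2 MTF2-shared distal peaks (0.186%), against 0.196% of all PHF19 peaks. Other inhibitors of proliferation with an MTF2-free distal peak were BTG2, an antiproliferative gene (count 1717), 20.3 kb downstream of its start at chr1:203294962-203298401 (score 93.77), and RBL1, which encodes the pocket protein p107 (count 1394), by 1 peak of score 59.5 upstream.

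Across 17 gene lists, 79 of the 1346 MTF2-free distal peaks (5.87%) lay in or nearest to a listed gene. This total was not counted for the other PHF19 classes, so it has no comparison and the classes are compared list by list. The erythroid list had 6 of them (0.446%), against 4 of the 1077 MTF2-shared distal peaks (0.371%) and 0.320% of all PHF19 peaks. Among them, LMO2, a transcriptional adaptor of erythroid cells with a mean normalized count of 4053, had peaks of score 95.47 and 50.09 at 50.4 and 44.4 kb from its start. SLC4A1 (count 910.0) had peaks of 90.32 and 50.18, and SLC25A37, the mitochondrial iron importer mitoferrin (count 8302), had 1 of 67.76. ANK1, which encodes erythrocyte ankyrin (count 7220), had 1 of 59.16 lying 19.2 kb upstream. None of these 4 genes had a PHF19 peak within 2.5 kb of its annotated start.

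Genes of other blood lineages ranged widely in the RNA. The stem and progenitor list had 5 MTF2-free (0.37%) and 5 MTF2-shared distal peaks (0.464%), against 0.285% of all PHF19 peaks. CD34, the stem cell surface marker, with a mean normalized count of 0.163, had a 5103 bp peak of score 119.02 at 66.2 kb upstream and a second of 60.11. RUNX1, a regulator of blood stem cells and megakaryocytes (count 911), held 1 intronic peak of 52.83. This was also the only MTF2-free distal peak of the megakaryocyte and platelet list (0.0743%). That list had 3 MTF2-shared distal peaks (0.279%), against 0.12% of all PHF19 peaks. In the myeloid list the 3 peaks lay near CEBPB (105.9), a transcription factor with a count of 232, near MPO (100.21), the myeloperoxidase gene with a count of 1.43, and in CSF1R (60.92), the M-CSF receptor gene with a count of 2.76. No MTF2-shared distal peak was tied to the myeloid list. The share was 0.223% of the MTF2-free distal peaks and 0.160% of all PHF19 peaks (9 peaks). MYC, the transcription factor, with a count of 9754, was the nearest coding gene of 2 peaks, 1 of score 82.04 lying 24.4 kb downstream of its start and 1 of 55.67 in the noncoding gene PVT1. They were the 2 MTF2-free distal peaks (0.149%) of the BCR-ABL and STAT5 signaling list. It had 0 MTF2-shared distal peaks and 0.0534% of all PHF19 peaks (3 peaks).

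Homeobox genes outside the HOX clusters were tied to 15 of the MTF2-free (1.11%) and 53 of the MTF2-shared distal peaks (4.92%), and to 2.31% of all PHF19 peaks. Cell adhesion and synaptic genes had 4 (0.297%) and 24 (2.23%), against 0.978% of all PHF19 peaks. HOX genes had 1 (0.0743%) and 5 (0.464%), against 0.498% of all PHF19 peaks. Forkhead and SOX genes also had 1 (0.0743%) and 5 (0.464%), against 0.623% of all PHF19 peaks. EVX2, beside the HOXD cluster, had the strongest of the homeobox list at 170.37, in an exon with 57.9% G or C, and was nearly silent in the RNA (0.155). CUX1, a broadly active homeobox gene (count 2678), followed with 147.18, and LHX5 with 129.4 at 201.3 kb. The 4 of the adhesion list were all in DLGAP1. HOXB7 (score 66.57) and FOXP4 (61.35) were the only genes of the HOX and of the forkhead and SOX lists.

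Signaling genes were tied to peaks of both distal classes. Wnt pathway genes had 15 MTF2-free (1.11%) and 9 MTF2-shared distal peaks (0.836%), and 1.14% of all PHF19 peaks. The strongest were at WNT16, a Wnt ligand (138.2, 10.6 kb upstream), and near RNF43, a ubiquitin ligase that removes Wnt receptors (84.89). Next came a peak 24.9 kb downstream of the start of the ligand gene WNT8A (80.21). WNT16 and WNT8A had mean normalized counts of 1.18 and 0, and RNF43 had 227. The Notch list had 2 MTF2-free (0.149%) and 2 MTF2-shared distal peaks (0.186%), against 0.391% of all PHF19 peaks. Of the MTF2-free pair, 1 lay in the Notch target gene HEY2 (131.26) and 1 lay 60.8 kb upstream of the target gene HEY1 (66.45). BMP6, a ligand of the TGF-beta family, had peaks of 105.65 and 57.94, the stronger 3.67 kb upstream and 309 bp from MTF2 of sh#2 cells. The list of TGF-beta and BMP ligands had 2 MTF2-free (0.149%) and 4 MTF2-shared distal peaks (0.371%), against 0.196% of all PHF19 peaks.

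Immediate early genes had 8 MTF2-free (0.594%) and 5 MTF2-shared distal peaks (0.464%), close to the 0.534% over all PHF19 peaks. Of the 8, 5 were in or nearest to ATF3, with scores of 125.03, 120.39, 92.63, 65.89 and 56.85. NR4A3, an orphan nuclear receptor (count 3.36), had 1 of 112.58 in an intron and IER5 (count 1507) had 2. Polycomb genes had 5 MTF2-free (0.37%) and 2 MTF2-shared distal peaks (0.186%), against 0.231% of all PHF19 peaks. Among these genes, EPOP, an accessory subunit of PRC2 with a count of 354, had peaks of 80.16 and 59.72. EZH2, the methyltransferase of PRC2 (count 5034), held 1 of 64.5 in an intron, and CBX6 was nearest to 1 (57.56). Collagen and matrix genes had 6 MTF2-free (0.446%) and 4 MTF2-shared distal peaks (0.371%), against 0.552% of all PHF19 peaks, led by LAMB1 (90.5), COL2A1 (67.24) and TNXB (64.05). RSAD2, an interferon-induced antiviral gene, held 1 of 65.26. It was the only PHF19 peak of the interferon list, 0.0743% of the MTF2-free distal peaks and 0.0178% of all PHF19 peaks.

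On chromosomes, the MTF2-free distal peaks were unevenly spread. Chromosome 1 held 186, chromosome 6 held 180, chromosome 7 held 173 and chromosome 17 held 114. These 4 chromosomes had 48.5% of the MTF2-free distal peaks and 44.6% of the other distal PHF19 peaks, against 29.6% of MTF2 peaks in sh#2 cells and 33.6% in shCT cells, in 21.8% of the sequence. The highest density was on chromosome 17 with 14.0 per 10 Mb, followed by 10.9 on chromosome 7 and 10.5 on chromosome 6. Chromosomes 13 and X held 4 each, chromosome 22 held 7 and chromosome 14 held 8. Chromosome 22 had 0.520% of these peaks, and 3.37% of MTF2 peaks in sh#2 cells and 2.67% in shCT cells. Its share was also low among the other distal PHF19 peaks (0.605%) and among all PHF19 peaks (0.854%).

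**Figure D5:**
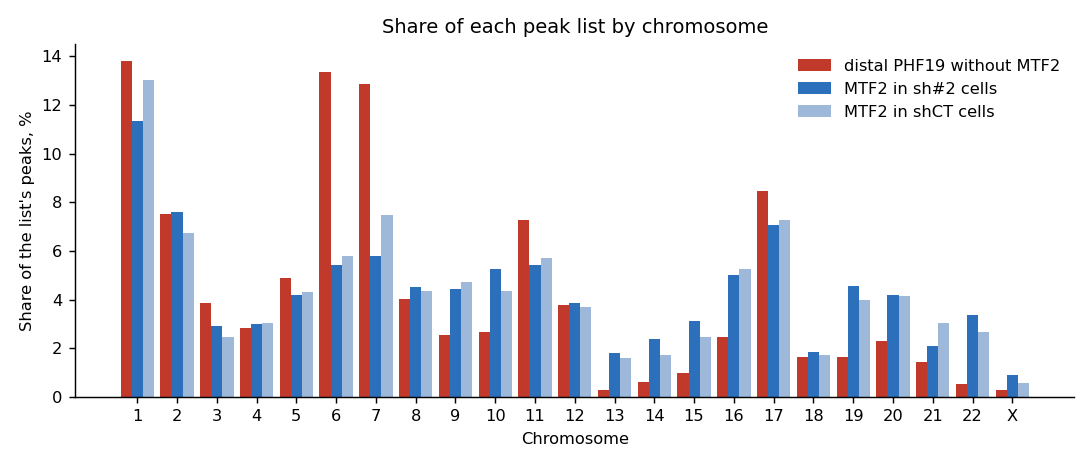
Share of each list's peaks (vertical axis, percent) on each chromosome (horizontal axis) for the 1346 distal PHF19 peaks without MTF2, the 18287 MTF2 peaks of sh#2 cells and the 12502 MTF2 peaks of shCT cells. Chromosomes 6 and 7 hold 13.4 and 12.9% of the MTF2-free distal PHF19 peaks, against 5.43 and 5.79% of the MTF2 peaks of sh#2 cells. Among all PHF19 peaks, not drawn, these shares were 9.91 and 11.0%.

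Within distal PHF19 peaks, the MTF2-free share also differed between chromosomes. Over all chromosomes it was 44.9%, and on chromosome 7 it was 45.4% (173 of 381, 40.3 to 50.6%). It was 55.0% on chromosome 6 (180 of 327, 49.5 to 60.5%). Chromosomes 2 (56.1%), 3 (57.8%) and 15 (61.9%, 13 of 21) had higher shares. The lowest were 14.8% on chromosome 13 (4 of 27), 25.6% on chromosome 16 (33 of 129, 18.3 to 34.0%) and 28.1% on chromosome 9 (34 of 121, 20.3 to 37.0%). The densest 5 Mb bins held 25 each, at 105 to 110 Mb of chromosome 7 and 200 to 205 Mb of chromosome 1. The bin on chromosome 7 had 10 MTF2 peaks in sh#2 cells and 12 in shCT cells, and 18 other PHF19 peaks, with members near NRCAM, CBLL1, LAMB4 and SYPL1. The bin on chromosome 1 had 151 and 124 MTF2 peaks and 51 other PHF19 peaks. The bins at 35 to 40 and 40 to 45 Mb of chromosome 6 followed with 22 each, the first with the CDKN1A cluster and the second with peaks near NCR2, ZNF318 and VEGFA, the vascular growth factor gene.

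The study names IgG as the control of its ChIP-seq and called peaks against a matching control. The heading of the PHF19 list pairs its library with one marked sh4, a mark that the heading of the MTF2 list of sh#2 cells carries too, while the headings of the MTF2 lists name IgG. The part of the control in the results was not tested.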

How the data were processed

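K562 cells were profiled by ChIP-seq, with 1 library per condition, and by RNA-seq. The authors mapped ChIP reads with Bowtie to hg19 and called peaks with MACS, and deposited lists that give each peak a position and a score. RNA reads were aligned with TopHat and compared with DESeq2 by the authors. Of their table only the mean normalized count over all 6 libraries was read (deposited as a mean, treated as a score), and its fold changes, standard errors, statistics and p-values were not used. For tool versions: not given in the sources used here. Read depth is not known, so the number of peaks limits the precision.

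Overlaps, distances, base composition and motifs were computed in Python 3.11.15 (numpy 2.4.6, scipy 1.17.1, pysam and pandas 2.3.3) on GRCh37 with GENCODE 44, with 1-based coordinates. The steps were tested on simulated data. Medians have 95% intervals from binomial order statistics and shares exact ones. RNA symbols were matched by name or RefSeq synonym (33 peaks had a nearest gene without a value). Regions and genes were named by fixed rules: the 10 highest scores, the 5 widest, the 5 nearest each threshold, the genes with most peaks, up to 3 per gene list and the densest bins. Further list genes were named after their values were seen. Where a gene start lay within 2.5 kb of a peak it was counted as carrying it. The peaks and the lists were chosen with earlier results of these data known. Repeat content was not measured. Some list genes and sequences that these rules take are not reported here. Not analysed here were the IgG library and the PHF19 libraries of sh#1 and sh#2 cells.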

Additional observations from a re-analysis of the deposited data

How the results depend on the processing

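No paired analysis was possible because no result comes from a test and each ChIP condition has 1 library. The number of MTF2-free distal peaks, 1346, changed to 793 with no MTF2 peak within 10 kb, 664 at over 10 kb from a transcript start, 426 and 348 among PHF19 peaks at or above the median score and the median width, and 541 at widths of 1000 to 1500 bp, an alternative added after the data were seen. The median GC content of 41.1% was 42.1% with the MTF2 list of shCT cells alone, 41.8% at or above the median width and 41.7% in the central 300 bp. The intron share of 44.4% was 40.4% at over 10 kb from a transcript start and 48.7% by any overlap. The median count of the nearest gene, 425, was 281 with the MTF2 list of shCT cells alone, 884 with no MTF2 peak within 10 kb and 24.4 for the gene that holds the midpoint. The share of distal PHF19 peaks that were MTF2-free, 44.9%, was 25.9% at or above the median width, 26.5% with no MTF2 peak within 10 kb, 32.2% at or above the median score, 40.3% with none within 1 kb, 42.8% with protein-coding transcript starts only, 48.9% with the MTF2 list of sh#2 cells alone, 56.4% at widths of 1000 to 1500 bp and 60.1% with that of shCT cells alone. The share with a CpG-rich window, 13.2%, was 15.5% with protein-coding transcript starts only, 17.3% with the MTF2 list of shCT cells alone, and 18.1% and 21.0% at or above the median score and width. The causes of these shifts were not tested, though the smaller numbers of peaks follow from stricter rules. The other alternatives for these results stayed within 1.5 times the number or inside the interval of the value. Peak lists have no replicates and their depth is unknown, so a missing MTF2 peak does not show that MTF2 was absent.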
